A study of Mus musculus with 30 samples.

Results

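The 8 genes Il12rb1, Il12rb2, Stat4, Il23r, Il18r1, Il18rap, Il1rl1 and Il27ra encode the receptors for interleukins 12, 23, 18, 33 and 27 and the transcription factor STAT4. They were taken by symbol from a table of 55573 mouse genes, of which they are 8, and were followed in naive CD8+ T cells activated with or without a cytokine. Spleens and lymph nodes of 8-week-old C57BL/6 mice gave the cells, which were sorted with magnetic beads and cultured for 3 days, without serum, on plate-bound antibodies to CD3 and CD28 (5 µg/ml of each). The mice were wild type (WT) or carried a knockout (KO) of Furin, the gene of a protease that cuts proproteins, the precursor of TGFB1 among them. IL12 (10 ng/ml), TGFB1 (0.5 ng/ml) or nothing was added, which gives 6 groups of 5 libraries, each from 4 female mice and 1 male by the labels. The number in a library's title, from 62 to 75, is used here to name it. By the labels, 62 (WT) and 63 (KO) are the male libraries. No label says whether libraries with the same number came from the same mouse, which part of Furin was deleted, or in which cells.

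IL12 is a dimer of p40 and p35, and its receptor is a dimer of IL12RB1 and IL12RB2 that signals through the kinases TYK2 and JAK2 to STAT4. IL23 shares p40 and IL12RB1 and pairs IL12RB1 with IL23R. IL18 binds the IL18R1 chain and recruits IL18RAP, and IL33 binds the IL1RL1 chain (also called ST2) with IL1RAP; both receptors signal through MYD88 and IRAK kinases. In CD8+ T cells IL12 is known as a signal for interferon gamma production, IL18 acts together with it, and IL33 is known to act on effector CD8+ T cells through ST2. IL27RA pairs with gp130, the product of Il6st, to receive IL27.

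Il1rl1, Il18r1 and Il18rap lie side by side. The GENCODE annotation of GRCm38 places Il1rl1 (ENSMUSG00000026069, chr1:40429570-40465415), Il18r1 (ENSMUSG00000026070, chr1:40465552-40500854) and Il18rap (ENSMUSG00000026068, chr1:40515362-40551705) on the plus strand, with 136 bases between the first pair and 14507 between the second. Il12rb2 (ENSMUSG00000018341, chr6:67291318-67376188) and Il23r (ENSMUSG00000049093, chr6:67422932-67491855) are both on the minus strand, 46.7 kb apart. Stat4 (ENSMUSG00000062939, chr1:51987148-52107189, plus strand), Il12rb1 (ENSMUSG00000000791, chr8:70808449-70821424, plus strand) and Il27ra (ENSMUSG00000005465, chr8:84030294-84042589, minus strand) lie elsewhere. Il12rb2 overlaps Serbp1 on the other strand over 6419 bases at its end, Il27ra overlaps Palm3 by 2 bases, and the predicted genes Gm28177 and Gm3940 overlap Stat4. The strand setting of the authors' counting is not given in the sources used here, so reads of such partners may have been split between them.

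The sequences just upstream of the starts of 4 receptor genes are shown because their levels differed most between cultures with IL12 and without, or because they hold a match to a searched element. They are RefSeq sequences of GRCm38.p6, written 5′ to 3′ on the gene's own strand. Capitals mark matches, on either strand, to TTCNNNGAA (the STAT element) or AGATAA (the GATA element). The Il18r1 stretch lies before the third annotated start of that gene, between annotated exons.
Il12rb2, chr6:67376189-67376438, minus strand: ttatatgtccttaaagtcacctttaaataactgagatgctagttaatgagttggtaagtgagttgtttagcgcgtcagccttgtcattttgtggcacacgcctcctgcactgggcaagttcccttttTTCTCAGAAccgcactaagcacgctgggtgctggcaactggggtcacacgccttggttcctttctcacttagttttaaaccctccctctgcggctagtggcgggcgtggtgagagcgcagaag
Il23r, chr6:67491856-67492105, minus strand: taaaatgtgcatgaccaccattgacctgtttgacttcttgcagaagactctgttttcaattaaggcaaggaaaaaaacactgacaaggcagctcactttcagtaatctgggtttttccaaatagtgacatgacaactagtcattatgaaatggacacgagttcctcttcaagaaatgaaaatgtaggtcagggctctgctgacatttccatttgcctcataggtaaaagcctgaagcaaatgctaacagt
Il1rl1, chr1:40429320-40429569, plus strand: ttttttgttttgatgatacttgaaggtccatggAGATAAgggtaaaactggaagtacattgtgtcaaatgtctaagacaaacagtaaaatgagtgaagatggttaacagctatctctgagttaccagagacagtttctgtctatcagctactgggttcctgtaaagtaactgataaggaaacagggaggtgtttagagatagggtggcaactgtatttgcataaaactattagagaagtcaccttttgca
Il18r1, chr1:40465811-40465969, plus strand: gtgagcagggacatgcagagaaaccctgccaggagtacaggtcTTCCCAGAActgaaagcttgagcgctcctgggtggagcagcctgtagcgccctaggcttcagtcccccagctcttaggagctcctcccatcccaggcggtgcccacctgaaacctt
In the 250 bases before each start, 6 of the 8 members had an entry, with 10 windows in all. The STAT element stood once in Il12rb2, 123 bases before the start, and as 2 copies before the third start of Il18r1, at 219 and 152 bases, of which the stretch shown holds the nearer. It occurs in 7.02% of 32851 promoter windows of that length. The GATA element stood once in each of the windows of Il1rl1 (9.99% of all windows). No member window held the AP-1 element TGANTCA (6.75% of all), the T-box element TCACACC (3.33%) or the SMAD element GTCTAGAC (0.167%), and 6 windows held none of the 5. No matches overlapped one another. Such a match describes letters, not a bound site.

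The libraries held 7306151 to 15502443 counts. Levels are CPM, the usual depth-scaled read count, after TMM scaling, which adjusts for differences in composition between libraries. Differences were tested with edgeR's quasi-likelihood test over 11718 genes that passed a filter on low counts, and a gene is said to have risen, fallen or changed where its Benjamini-Hochberg adjusted p was below 0.05. All 8 members passed this filter, Il23r through its level with IL12 alone. Since the labels do not say that libraries are separate cultures, the p-values measure only the spread between these libraries.

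Furin itself, the targeted gene, spanned 28.8 to 38.5 CPM over WT libraries without cytokine and 31.5 to 33.9 CPM over KO ones. The WT and KO ranges were 73.9 to 93.2 and 66.0 to 90.2 CPM with TGFB1, and 161.4 to 532.8 and 120.0 to 463.5 CPM with IL12. None of the KO against WT differences passed the test (adjusted p 0.914, 0.901 and 0.0799 by edgeR). A gene count includes reads outside a deleted part, so it does not check the labels here, and WT and KO mean libraries labelled so. All 7 CD8 T cell markers (Cd3d, Cd3e, Cd3g, Cd8a, Cd8b1, Lck, Thy1) were expressed, with sums of 2903 to 5599 CPM, and the markers of other cells were low. Of the 5 B cell markers 1 passed the low-count filter, Cd79b, at 5.99 to 18.6 CPM. It was lower in KO than in WT cells without cytokine, with TGFB1 and with IL12 (log2 fold changes -0.67 ± 0.17, -0.55 ± 0.16 and -0.69 ± 0.17, edgeR adjusted p 0.0361, 0.0103 and 0.0175), and its part in the members' differences was not tested. Of the 9 myeloid and dendritic markers 2 passed, Lyz2 at up to 4.68 CPM and Zbtb46 at 0.759 to 4.97 CPM, and Zbtb46 rose with IL12 in WT (0.97 ± 0.25) and KO cells (0.83 ± 0.24; adjusted p 0.00627 and 0.0179), which was likewise not tested as a part of the IL12 results. Xcr1 and Clec9a, which mark dendritic cells, had 1 count each over all 30 libraries. The summed NK cell markers reached at most 2.21 CPM, the gamma delta T cell markers 11.3 CPM and the CD4 pair Cd4 and Zbtb7b 26.7 CPM.

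IL12 raised 4 of the 7 members other than Il23r in both genotypes: Il12rb2, the IL12-specific chain; both chains of the IL18 receptor; and Il1rl1, the IL33 receptor. The shared chain Il12rb1, Stat4 and Il27ra passed the test in neither genotype. Il23r, the IL23-specific chain, had counts almost only with IL12 and entered the tested genes through that level alone. Its rise with IL12 is therefore described by its values, and no weight is put on its test. Among all genes tested, 10.5% rose and 8.30% fell with IL12 in WT cells, and 8.49% rose and 5.74% fell in KO cells. For each of the 4 raised genes the lowest IL12 library lay above the highest library without cytokine, in WT and in KO cells alike. The share of all genes that separate in this way was not counted, so this only describes these genes. The median log2 fold change over the 7 members was 1.29 in WT and 1.75 in KO cells, beside 0.01 and 0 over all genes tested. In whole cultures, more cells of one kind and more RNA per cell cannot be told apart.

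**Figure D1:**
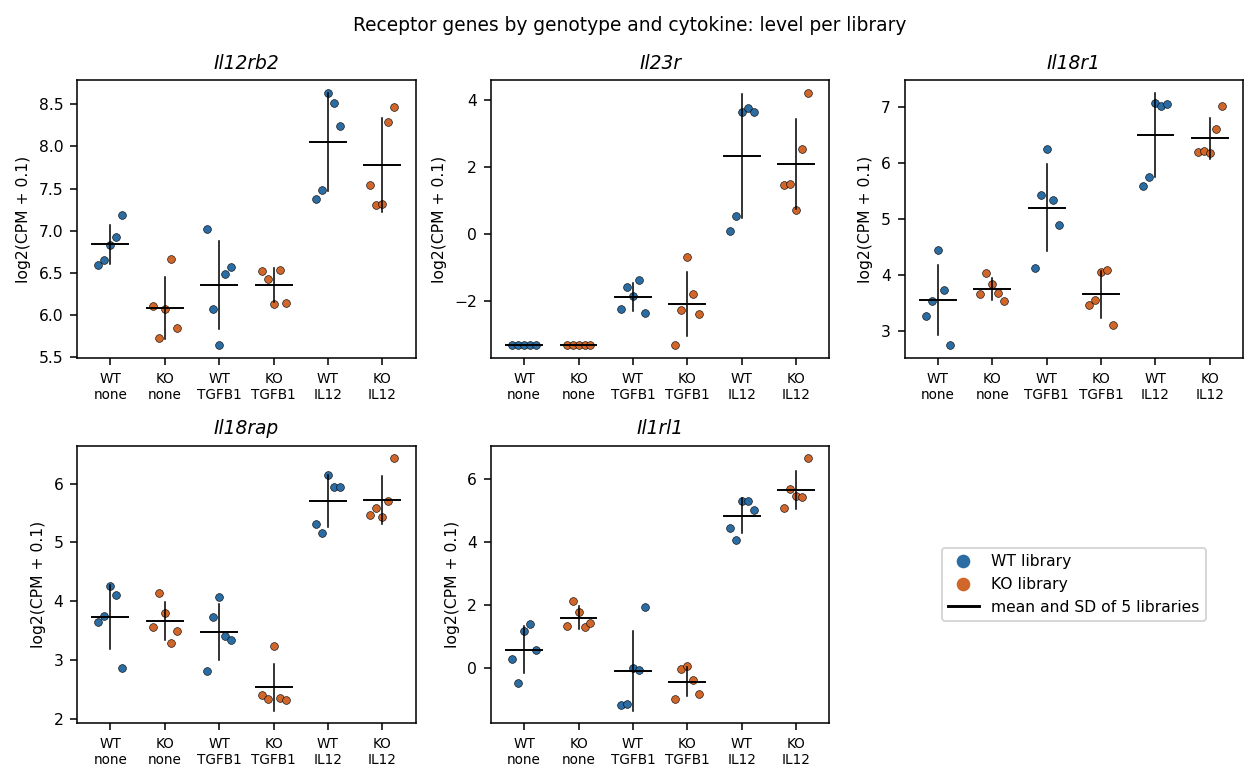
Level of the 4 genes raised with IL12 and of Il23r, as log2(CPM + 0.1), in each library of the 6 groups of genotype (WT blue, KO orange) and cytokine. Points are libraries, and the bars give the mean and SD of the 5 log2 values of a group; in each panel both IL12 groups lie above both groups without cytokine.

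Among the receptors for IL12 and IL23, Il12rb2 was the most abundant member per length in 5 of the 6 groups, the exception being KO cells without cytokine (18.3 CPM per kb, below Stat4 at 19.4). Without cytokine, WT libraries 62, 67, 71, 72 and 75 stood at 96.5, 100.5, 114.1, 121.4 and 145.2 CPM, and with IL12 at 166.7, 179.2, 396.9, 367.0 and 301.6 CPM. KO libraries 63, 68, 70, 73 and 74 went from 68.8, 52.7, 67.3, 101.4 and 57.4 CPM to 185.9, 157.7, 159.0, 313.1 and 353.3 CPM. Libraries 71 to 75 were the high ones with IL12 in both genotypes. The log2 fold change was 1.29 ± 0.26 (SE, n = 5 and 5) in WT cells, with an edgeR adjusted p of 0.000718, and 1.75 ± 0.26 in KO cells, with an adjusted p of 3.23e-05. The overlapping Serbp1 was not among the genes that changed with IL12.

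Il12rb2 without cytokine also lay lower in KO than in WT cells, at 69.5 ± 19.04 against 115.6 ± 19.4 CPM (SD, n = 5 each), and this difference did not pass the test (log2 fold change -0.73 ± 0.26, edgeR adjusted p = 0.123). Only KO library 73, at 101.4 CPM, reached into the WT range, which began at 96.5 CPM. The difference passed in an edgeR fit of these 10 libraries alone (adjusted p = 0.0173). Of the 10 fits that left out 1 library, 1 passed, that without library 73 (log2 fold change -0.91, edgeR adjusted p = 0.0479). In the others the adjusted p was up to 0.304. Il23r had no counts there and could not be compared. By edgeR 0 of the other 7 members passed, 1 had an unadjusted p below 0.05 (Il12rb2), and DESeq2 called 0. Beside this, 1.08% of all genes were higher and 1.02% lower in KO cells. The median log2 fold change was -0.007 over the 7 members other than Il23r and -0.002 over all genes.

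Il12rb1, the chain shared by the IL12 and IL23 receptors, changed in no comparison. Its group means lay between 49.5 ± 10.6 CPM (SD, n = 5) in WT cells without cytokine and 65.9 ± 17.9 CPM in KO cells with IL12, and the ranges of neighbouring groups all overlapped. KO means were above WT means in all 3 conditions, by a log2 fold change of 0.22 to 0.27 with SEs near 0.16, and none passed the test. Per length, Il12rb2 stood at 2.62 ± 0.68 times Il12rb1 in WT cells without cytokine and at 5.30 ± 1.63 times with IL12 (SD of 5 libraries), with ranges of 1.96 to 3.46 and 3.58 to 7.11. In KO cells this ratio was 1.35 ± 0.65 without cytokine and 3.96 ± 1.77 with IL12, and the ranges, 0.903 to 2.46 and 2.63 to 6.98, did not overlap either.

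Il23r went from no counts to a clear level. It had 0 counts in all 10 libraries without cytokine. With IL12 the WT libraries 62, 67, 71, 72 and 75 stood at 0.957, 1.36, 12.3, 13.6 and 12.4 CPM, and the KO libraries 63, 68, 70, 73 and 74 at 2.66, 2.74, 1.55, 5.72 and 18.5 CPM. Every IL12 library was above every other library, but they fell into a low and a high set. Against a floor of 3 counts summed over the libraries without cytokine, the mean with IL12 was at least 120-fold higher in WT cells (398 counts) and at least 99.1-fold higher in KO cells (376 counts). KO library 74 held 225 of those 376 counts, and without it the KO mean was 3.17 CPM, at least 50.3-fold higher. With TGFB1 Il23r had 9 counts in each genotype, at most 0.520 CPM in any library, and KO library 70 held 5 of the KO counts. The means were 2.68-fold (WT) and 2.89-fold (KO) above the floor, and with so few counts no rise is read from them. Per length, Il23r with IL12 lay at 3.27 (WT) and 2.51 (KO) CPM per kb, below Il12rb1 at 13.8 and 16.1 CPM per kb.

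Of the IL18 receptor chains, Il18r1 encodes the ligand-binding chain. In WT libraries 62, 67, 71, 72 and 75 it stood at 9.57, 11.4, 21.7, 13.2 and 6.58 CPM without cytokine and at 48.2, 53.8, 134.5, 128.8 and 133.2 CPM with IL12. In KO libraries 63, 68, 70, 73 and 74 it stood at 12.6, 16.3, 14.1, 12.7 and 11.5 CPM without cytokine and at 73.5, 73.7, 71.9, 97.2 and 129.0 CPM with IL12. All IL12 libraries were high, and the genotypes overlapped. The means rose 7.99-fold and 6.62-fold, with log2 fold changes of 3.00 ± 0.34 (SE, edgeR adjusted p = 6.46e-07) in WT and 2.73 ± 0.34 (adjusted p = 2.46e-06) in KO cells.

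Il18rap, the signalling partner chain, moved from 13.8 ± 4.6 to 53.7 ± 15.4 CPM in WT cells, and in KO cells from 12.8 ± 3.0 to 54.5 ± 17.96 CPM (SD, n = 5 each). Without cytokine its libraries spanned 7.15 to 19.1 CPM (WT) and 9.61 to 17.4 CPM (KO), and with IL12 35.5 to 70.8 and 43.0 to 86.1 CPM. The rise was 3.89-fold in WT and 4.28-fold in KO cells, with edgeR adjusted p of 3.81e-06 and 1.52e-06. Both chains of the receptor therefore stood higher with IL12 in every library. Il18r1 rose by more than Il18rap: per length, the ratio of Il18r1 to Il18rap was 1.25 ± 0.21 without cytokine and 2.50 ± 0.57 with IL12 in WT cells, and 1.51 ± 0.21 and 2.32 ± 0.21 in KO cells, with ranges that did not overlap in either genotype.

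Il1rl1, the IL33 receptor, had the largest fold change with IL12 among the members detected without cytokine. WT libraries 62, 67, 71, 72 and 75 went from 1.11, 0.617, 2.12, 2.51 and 1.36 CPM to 21.5, 16.7, 39.7, 39.0 and 32.5 CPM. KO libraries 63, 68, 70, 73 and 74 went from 2.41, 4.28, 3.30, 2.38 and 2.60 CPM to 33.3, 51.3, 43.6, 42.9 and 100.8 CPM. The groups lay far apart, and KO library 74 was the highest of all. The means rose 19.3-fold in WT (log2 fold change 4.29 ± 0.41, edgeR adjusted p = 3.55e-08) and 18.2-fold in KO cells (4.19 ± 0.37, adjusted p = 1.81e-08).

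Mast cells and group 2 innate lymphoid cells also carry ST2, so their markers were read beside Il1rl1. Of the 7 listed (Kit, Fcer1a, Ms4a2, Cpa3, Mcpt4, Calca, Hpgds), 4 passed the low-count filter and Mcpt4 was at 0 in every library. Their sum was 2.002 to 14.4 CPM (WT) and 9.29 to 23.6 CPM (KO) without cytokine, 9.86 to 44.8 and 13.9 to 20.0 CPM with TGFB1, and 6.98 to 27.5 and 11.5 to 20.8 CPM with IL12. The mast cell protease Cpa3 was at 0.667 to 7.54 CPM without cytokine and 1.65 to 5.16 CPM with IL12 in WT cells. In KO cells it was at 4.64 to 12.9 and 2.88 to 7.20 CPM, and its ranges overlapped in each genotype. The part of Cpa3 in the result was not tested. Kit, the stem cell factor receptor, moved with Il1rl1 here, from 0.720 to 2.002 CPM up to 4.94 to 21.4 CPM in WT and from 0.699 to 1.40 CPM up to 5.00 to 14.5 CPM in KO cells, and its part in the result was not tested. The highest sum, 44.8 CPM in WT library 75 with TGFB1, went with an Il1rl1 level of 3.75 CPM. Kit with TGFB1 reached 8.96 to 20.7 CPM in WT and 11.4 to 16.3 CPM in KO cells.

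None of the 7 members other than Il23r passed the test of a different IL12 response in KO and WT cells. By edgeR 0 of these 7 passed in either direction and 0 had an unadjusted p below 0.05, and DESeq2 called 0. Over all genes 0% were higher and 0% lower, 513 genes having an unadjusted p below 0.05. Il23r had no counts without cytokine, so its difference could not be estimated. In the direct comparison of KO with WT cells with IL12, 2.76% of all genes were higher and 4.01% lower. There 0 of 8 members passed by edgeR or DESeq2, with 1 at an unadjusted p below 0.05, Il1rl1. Its mean with IL12 was 29.9 ± 10.4 CPM for WT and 54.4 ± 26.7 CPM for KO cells (SD, n = 5 each), with overlapping libraries, a log2 fold change of 0.87 ± 0.30 and an edgeR adjusted p of 0.074. With a term for the split of the libraries by title number given in a later paragraph, added after the data were seen, it was 1.02 with an adjusted p of 0.0171. With 1 library left out it ranged from 0.52 to 0.997 and never passed (edgeR adjusted p 0.0581 to 0.258). The members' median log2 fold change was 0.02 without Il23r, beside 0 over all genes.

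The members that TGFB1 changed were Il18r1 in WT cells and Stat4, Il18rap and Il1rl1 in KO cells. In WT cells Il18r1 was the 1 member of 8 that rose, and 0 fell, beside 19.2% of all genes higher and 18.6% lower. WT libraries 62, 67, 71, 72 and 75 with TGFB1 stood at 17.3, 42.9, 75.6, 40.3 and 29.6 CPM, each above its same-numbered library without cytokine, though the ranges of the groups overlapped. The mean rose 3.30-fold (log2 fold change 1.73 ± 0.34, edgeR adjusted p = 0.00032). KO libraries 63, 68, 70, 73 and 74 with TGFB1 stood at 10.9, 11.7, 16.4, 17.0 and 8.47 CPM, within or near their range without cytokine, with a log2 fold change of -0.06 ± 0.35.

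The test of the difference between the genotypes' TGFB1 responses called Il18r1 lower in KO cells, by a log2 value of -1.79 ± 0.49 with an edgeR adjusted p of 0.0416. It was the 1 called there of the 7 members other than Il23r, beside 1.61% of all genes higher and 1.69% lower. For Il23r the difference could not be estimated. The call was lost in 14 of the 20 fits that left out 1 library, with adjusted p up to 0.102 (without WT library 71 with TGFB1), and the value stayed between -2.09 and -1.44. Stat4 had a difference of -0.70 ± 0.22 (edgeR adjusted p = 0.0647), which passed in DESeq2 (adjusted p = 0.0354). Of the 20 edgeR fits that left out 1 library, 2 passed, without WT library 62 or KO library 73 with TGFB1 (adjusted p 0.0135 and 0.0128). In the others the adjusted p was up to 0.135. The median over the members other than Il23r was -0.70, beside 0.01 over all genes.

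In KO cells TGFB1 lowered 3 of the 8 members, Stat4, Il18rap and Il1rl1, and raised 0, beside 11% of all genes lower and 13.5% higher. For each, all 5 TGFB1 libraries lay under all 5 libraries without cytokine. The share of all genes that do so was not counted, so this only describes these genes. Stat4 went from 78.9, 71.5, 74.7, 78.9 and 71.6 CPM in KO libraries 63, 68, 70, 73 and 74 to 47.3, 30.9, 38.0, 57.8 and 25.1 CPM, a log2 fold change of -0.92 ± 0.16 (edgeR adjusted p = 7.01e-05). Il18rap went from 11.7, 17.4, 13.9, 9.61 and 11.2 CPM to 5.19, 4.96, 9.35, 5.02 and 4.88 CPM (-1.11 ± 0.28, adjusted p = 0.00428). Library 70 was the highest of these with TGFB1.

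Il1rl1 fell in KO cells from 2.99 ± 0.81 to 0.664 ± 0.237 CPM (SD, n = 5 each), that is from 141 to 32 counts in all, with a log2 fold change of -2.13 ± 0.55 and an edgeR adjusted p of 0.00498. Cpa3 moved with it, spanning 4.64 to 12.9 CPM without cytokine and 1.38 to 3.46 CPM with TGFB1. Fcer1a did so too, spanning 1.73 to 3.93 and 0.460 to 1.04 CPM. Kit went the other way, from 0.699 to 1.40 CPM without cytokine up to 11.4 to 16.3 CPM with TGFB1. The sum of the 7 listed markers spanned 9.29 to 23.6 and 13.9 to 20.0 CPM. The part of these markers in the result was not tested. In WT cells, where Il1rl1 stood at 0.336 to 3.75 CPM with TGFB1, the change was -0.25 ± 0.55 and did not pass (edgeR adjusted p = 0.748). Library 75 set the upper end of that range, and without it the change in WT cells was -1.24 (adjusted p = 0.0923). The 3 genes that fell in KO cells did not pass in WT cells, and for Il18rap and Il1rl1 the difference between genotypes did not pass either (edgeR adjusted p 0.185 and 0.155). Without WT library 75 with TGFB1 the difference for Il1rl1 was -0.90 (adjusted p = 0.567).

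Set side by side with TGFB1, KO cells had lower Stat4, Il18r1 and Il18rap than WT cells, 3 of 8 members, and none higher, beside 17.3% of all genes lower and 18.3% higher. These comparisons share the KO libraries with those above. Il18r1 averaged 12.9 ± 3.7 CPM there against 41.1 ± 21.8 CPM for WT, with no overlap, a log2 fold change of -1.68 ± 0.34 and an edgeR adjusted p of 0.000712. Stat4 stood at 39.8 ± 13.03 against 72.6 ± 10.2 CPM (-0.87 ± 0.16, adjusted p = 0.000364), WT library 62 at 56.5 CPM being just under KO library 73 at 57.8 CPM. Il18rap stood at 5.88 ± 1.94 against 11.5 ± 3.7 CPM (-0.97 ± 0.28, adjusted p = 0.0093), with WT library 62 at 6.94 CPM and KO library 70 at 9.35 CPM the ones that crossed. Library 62, the male one, was the lowest WT library with TGFB1 for all 3 genes (17.3 CPM for Il18r1). Sex and library cannot be told apart there. The median over the members other than Il23r was -0.87, beside -0.01 over all genes. The summed CD8 T cell markers were also lower there, 3206 to 3914 CPM in KO and 3702 to 5599 CPM in WT libraries, and their part in the result was not tested.

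**Figure D2:**
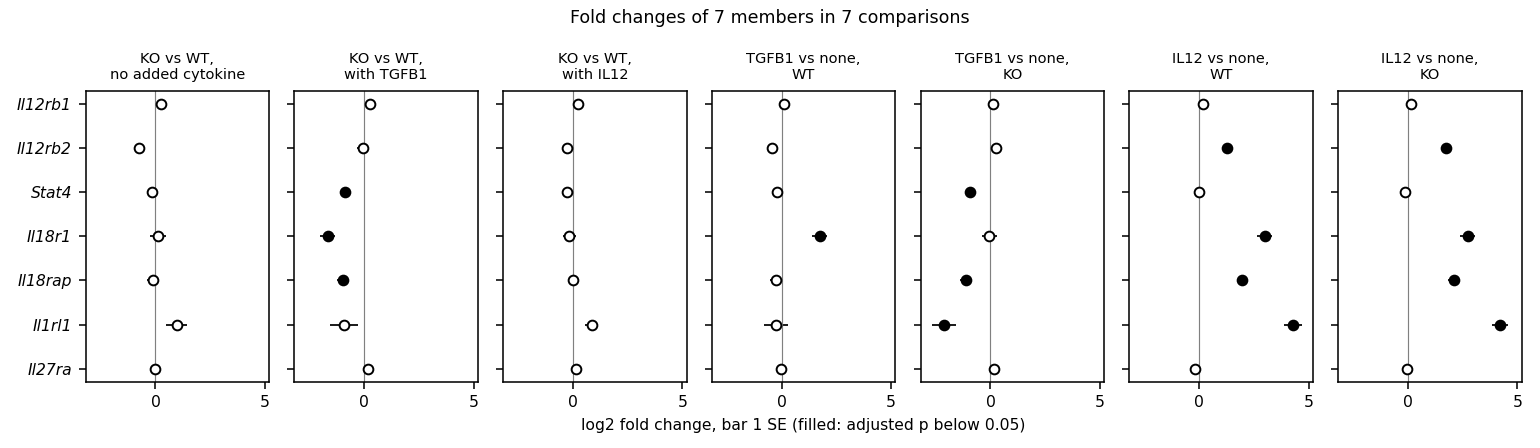
Log2 fold change with 1 SE of 7 members in the 7 comparisons between 2 groups, filled where the edgeR adjusted p is below 0.05; Il23r is left out because it had no counts without cytokine. Il12rb2, Il18r1, Il18rap and Il1rl1 are filled to the right in both IL12 panels, and Stat4, Il18r1 and Il18rap to the left in the panel of KO against WT with TGFB1.

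Stat4 did not change with IL12, with log2 fold changes of -0.02 ± 0.15 in WT and -0.14 ± 0.15 in KO cells (edgeR adjusted p 0.954 and 0.61). Its level was 84.5 ± 7.4 CPM in WT cells without cytokine and 83.4 ± 16.8 CPM with IL12 (SD, n = 5 each). Its order over the groups ran from WT without cytokine down to KO with TGFB1, neighbours in that order overlapping. Il27ra, the IL27 receptor chain, was the steadiest member: its 6 group means ran from 32.0 ± 3.9 CPM in WT cells with IL12 to 40.5 ± 5.4 CPM in KO cells with TGFB1, and no comparison passed the test. The largest of its changes was -0.21 ± 0.11 with IL12 in WT cells, lower at all 5 title numbers (edgeR adjusted p = 0.197).

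**Figure D3:**
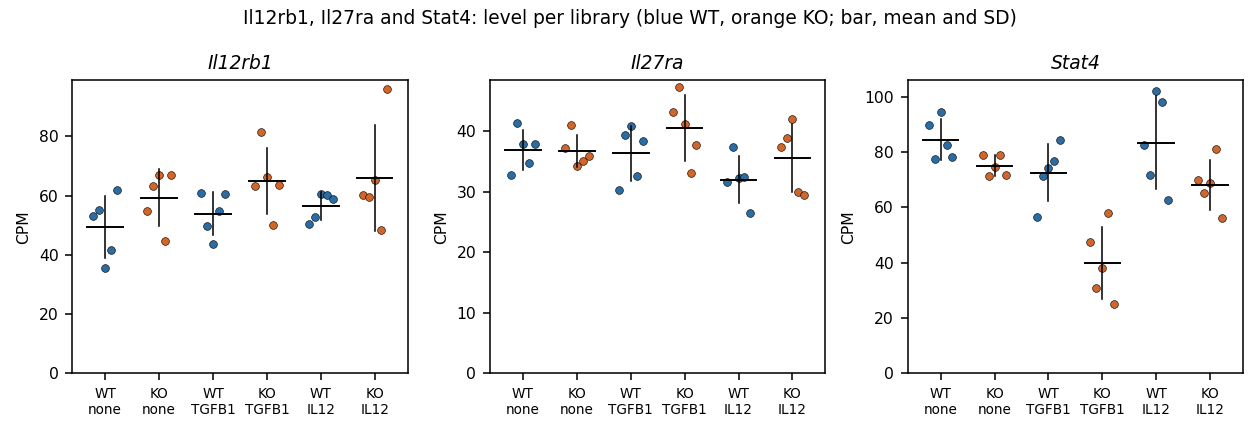
CPM of Il12rb1, Il27ra and Stat4 in each library of the 6 groups, on linear axes from 0, with the mean and SD of 5 libraries as bars. Stat4 in KO cells with TGFB1 lies at 25.1 to 57.8 CPM, and for each gene the groups next to each other in level overlap.

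Per length, the order of the members in WT cells without cytokine was Il12rb2 (30.5 CPM per kb), Stat4 (21.8), Il12rb1 (12.05), Il27ra (10.6), Il18r1 (2.59), Il18rap (2.05), Il1rl1 (0.224) and Il23r (0). With IL12 in WT cells it was Il12rb2 (74.4), Stat4 (21.5), Il18r1 (20.7), Il12rb1 (13.8), Il27ra (9.155), Il18rap (7.95), Il1rl1 (4.33) and Il23r (3.27), all in CPM per kb. Il18r1 thus moved from well under Il12rb1 and Il27ra to above them.

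The chromosome 1 genes were compared with their neighbours in the same receptor family. Il1rl2, the IL36 receptor chain, which lies before Il1rl1, rose with IL12 by a log2 value of 0.90 ± 0.21 in WT and 0.84 ± 0.20 in KO cells (edgeR adjusted p 0.00367 and 0.00485). Il1r1 and Il1r2, the IL1 receptors before it, and Slc9a4 and Slc9a2, after Il18rap, did not pass the low-count filter, with at most 1.66 CPM in any library. With IL12 the values thus stood highest for Il1rl1 and lower for the genes on either side of it, 3.00 and 1.96 for Il18r1 and Il18rap in WT cells. With TGFB1 Il18r1 rose in WT cells, and Il18rap, 14507 bases on, did not pass the test there (log2 fold change -0.26 ± 0.26, edgeR adjusted p = 0.454).

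**Figure D4:**
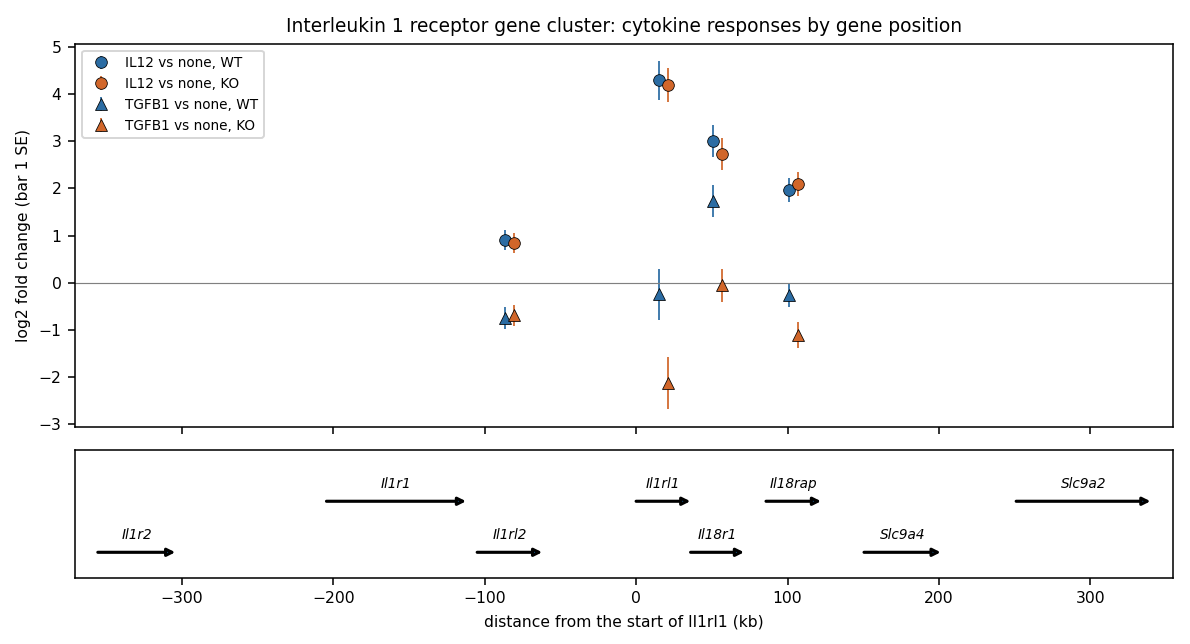
Cytokine responses (log2 fold change with 1 SE, circles IL12, triangles TGFB1, WT blue, KO orange) of the genes of the chromosome 1 receptor cluster, over their positions in kb from the start of Il1rl1, with arrows for the direction of transcription. The IL12 values are highest at Il1rl1, 4.29 in WT and 4.19 in KO cells, and genes without points did not pass the low-count filter.

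Among the ligands and the soluble IL18 inhibitor (Il12a, Il12b, Il23a, Ebi3, Il27, Il18, Il33, Il18bp), 3 of 8 passed the low-count filter. Il23a, the p19 subunit of IL23, rose with IL12, from 1.77 ± 0.86 to 13.2 ± 8.5 CPM in WT and from 1.85 ± 0.67 to 12.9 ± 6.4 CPM in KO cells (SD, n = 5 each; edgeR adjusted p 9.86e-05 and 0.000144). Its partner Il12b was at most 0.345 CPM in any library. Ebi3, a subunit of IL27 and IL35, rose with TGFB1 in WT cells, from 0.407 to 1.11 CPM (log2 fold change 1.45 ± 0.43, edgeR adjusted p = 0.0088). The ligand Il33 was at most 0.547 CPM and Il18 at most 2.12 CPM in any library.

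Among the shared receptor chains and relatives (Il6st, Il1rap, Sigirr, Il1rl2, Il1r1, Il1r2), 4 of 6 passed the filter and 2 rose with IL12 in each genotype, Il6st and Il1rl2. Over all genes tested, 10.5% rose in WT and 8.49% in KO cells. Il6st, which encodes gp130, rose with IL12 by 0.77 ± 0.23 in WT and 1.02 ± 0.23 in KO cells on the log2 scale (edgeR adjusted p 0.0179 and 0.00274), the WT call being lost without library 75 with IL12 or library 72 without cytokine (adjusted p 0.061 and 0.0507). With TGFB1 it rose by 1.34 ± 0.23 and 0.90 ± 0.23 (adjusted p 7.38e-05 and 0.0044). Il1rap, the partner of ST2, stood at 14.1 ± 0.9 CPM in WT cells without cytokine and 11.4 ± 2.3 CPM with IL12. In KO cells it stood at 14.45 ± 2.85 and 15.25 ± 1.46 CPM, and its change with IL12 passed in neither genotype. With IL12 it was higher in KO than in WT cells (0.42, edgeR adjusted p = 0.0336), a call lost in 6 of the 10 fits that left out 1 library. Sigirr, a negative regulator of IL1 family receptors, fell with TGFB1 in KO cells (-0.96 ± 0.14, adjusted p = 4.38e-06) and was lower in KO than in WT cells with TGFB1 (-0.66 ± 0.14, adjusted p = 0.000833).

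Of the JAK and STAT relays, Stat3 (-0.56 ± 0.13) and Jak1 (-0.50 ± 0.11) were lower in KO than in WT cells with TGFB1 (log2 fold changes, edgeR adjusted p 0.00221 and 0.00166). Stat3 nevertheless rose with TGFB1 in both genotypes, by 0.80 ± 0.13 in WT and 0.48 ± 0.13 in KO cells (edgeR adjusted p 4.63e-05 and 0.00767). Jak2, a kinase of the IL12 receptor, was higher in KO than in WT cells with IL12 (0.54 ± 0.09, edgeR adjusted p = 0.00234).

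Of the 6 MyD88 relays (Myd88, Irak1, Irak2, Irak4, Traf6, Map3k7), all tested, Myd88 rose with IL12 in WT (0.50 ± 0.09) and KO cells (0.60 ± 0.09), on the log2 scale. With TGFB1, Traf6, a ubiquitin ligase of this pathway, rose in both genotypes (0.45 ± 0.10 and 0.63 ± 0.10). Map3k7, the TAK1 kinase, rose in KO cells and was higher in KO than in WT cells with TGFB1 (0.37 ± 0.06, edgeR adjusted p = 0.000119). It was 1 of the 6 relays, beside 18.3% of all genes higher and 17.3% lower in that comparison.

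Of the 7 signalling inhibitors (Socs1, Socs2, Socs3, Cish, Pias1, Tollip, Irak3), Socs2, a feedback inhibitor of cytokine receptors, was higher in KO than in WT cells with TGFB1, by 1.38 ± 0.36 (log2 scale, edgeR adjusted p = 0.00448). WT library 62 with TGFB1 stood apart for Socs2, at 137.0 CPM against at most 45.3 CPM in the other WT libraries and 77.8 to 201.4 CPM in KO libraries, and without it the difference was 2.18 (adjusted p = 1.98e-06). Socs3 fell with TGFB1 in WT cells (-0.98 ± 0.27, adjusted p = 0.00534), and Tollip rose with IL12 in KO cells (0.24 ± 0.06, adjusted p = 0.0041).

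Most of the listed STAT4 target genes rose with IL12. Of 12 listed genes 11 were tested. With Il10 and Hlx left aside, every tested gene but Irf1 rose in each genotype, and Irf1 fell. Among all genes tested 10.5% rose and 8.30% fell in WT, and 8.49% rose and 5.74% fell in KO cells. Il10 and Hlx had at most 7 counts per genotype without cytokine and were tested only because of their level with IL12, so they are not counted. The list was chosen with earlier results of these data known, so the rises only describe these genes. With 1 library left out, calls were lost for Irf1 in WT cells (without 62, 67 or 72 with IL12, or 71 or 72 without cytokine), for Gadd45b in KO cells (without 74 with IL12, or 68, 70 or 74 without cytokine) and for Il10 in KO cells (without 74 with IL12), at adjusted p of at most 0.156. Ifng, which encodes interferon gamma, went from 9.52 ± 3.33 to 796.2 ± 520.2 CPM in WT and from 14.99 ± 8.03 to 637.7 ± 447.9 CPM in KO cells (edgeR adjusted p 5.45e-09 and 3.40e-08). Tbx21, the transcription factor T-bet, rose from 34.3 ± 2.8 to 121.8 ± 34.6 CPM and from 38.9 ± 3.3 to 119.6 ± 32.3 CPM (SD, n = 5 each). Furin rose by log2 values of 3.44 ± 0.32 and 2.72 ± 0.31.

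Il10 and Hlx had few counts without cytokine, so their ratios with IL12 are loose and only describe these genes. For Il10 the ratio of pooled CPM was 93.8 in WT cells (299 against 3 counts, exact 95% interval 31.8 to 457) and 25.1 in KO cells (63 against 2 counts, 6.66 to 212). In WT cells with IL12, Il10 stood at 0.547 and 0.388 CPM in libraries 62 and 67 and at 7.58 to 12.2 CPM in 71, 72 and 75, beside 0.191 to 2.14 CPM in KO libraries. For Hlx the ratio was 21.4 in WT cells (159 against 7 counts, 10.1 to 54.0) and 74.1 in KO cells (186 against 2 counts, 20.2 to 616), or 34.0 in KO cells without library 74, which held 118 of the 186 counts. These intervals cover counting error only. Irf1 was lower in KO than in WT cells with IL12 (-0.70 ± 0.13, edgeR adjusted p = 0.00436) and with TGFB1 (-0.55 ± 0.13, adjusted p = 0.00229). With TGFB1, Gzmb (granzyme B) was lower in KO cells by -2.02 ± 0.48 (adjusted p = 0.00238), a value that rests in part on WT library 62, at 166.8 CPM against 13.9 to 41.5 CPM in the other WT libraries. Without it the difference was -0.95 (adjusted p = 0.0257). Against cells without cytokine, TGFB1 lowered Gzmb by -4.17 ± 0.47 in WT cells (-5.25 without library 62) and -5.21 ± 0.51 in KO cells, and Prf1 (perforin) by -1.61 ± 0.26 and -2.74 ± 0.27, and raised Furin (1.23 ± 0.30 and 1.26 ± 0.30) and Irf1 (0.56 ± 0.13 and 0.54 ± 0.13).

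The libraries with IL12 fell apart by title number, a split chosen after the values were seen. Of the members, Il23r showed it most: WT libraries 62 and 67 averaged 1.16 CPM and 71, 72 and 75 averaged 12.8 CPM, while KO libraries 63, 68 and 70 averaged 2.32 CPM and 73 and 74 averaged 12.1 CPM. On the low and high side of number 70, Il12rb2 averaged 172.9 and 355.2 CPM for WT cells, and for KO cells 167.5 and 333.2 CPM. Il18r1 averaged 51.0 and 132.2 CPM (WT) and 73.02 and 113.1 CPM (KO). Ifng (289.1 and 1134 CPM in WT cells) and Furin (171.9 and 509.7 CPM) were split the same way. The members' rises were present on both sides: for Il18r1 the log2 ratio of means was 2.28 and 3.26 in WT and 2.35 and 3.22 in KO cells, for Il18rap 1.54 and 2.16, and 1.65 and 2.73, for Il12rb2 0.81 and 1.48, and 1.41 and 2.07, and for Il1rl1 4.46 and 4.21, and 3.68 and 4.85. The labels name no batch for this split.

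**Figure D5:**
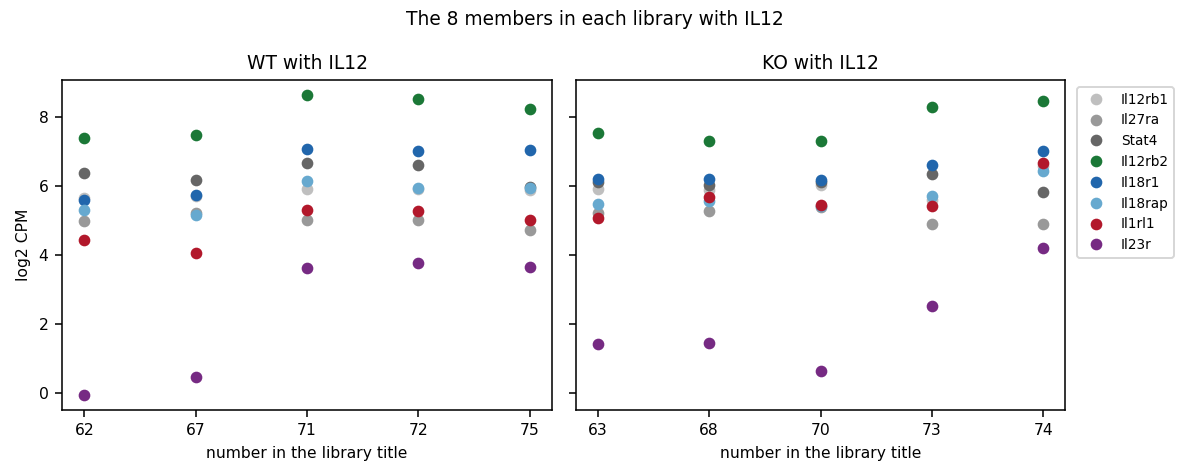
Log2 CPM of the 8 members in each library with IL12, by the number in the library title, in WT (left) and KO cells (right). Il23r lies between 0.957 and 2.74 CPM in the libraries numbered up to 70 and between 5.72 and 18.5 CPM in those above.

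As a description over the 30 libraries, which share the 6 groups, member pairs were compared in log2 CPM. With Il23r left out, the pairs most alike were Il18rap with Il1rl1 (Pearson r = 0.926) and Il18r1 with Il18rap (0.869). Il12rb1 with Stat4 stood at -0.494 and Il12rb2 with Il27ra at -0.59. Among all other genes tested, the genes most like each member but Il23r over the same 30 libraries were Gpr65 (0.955) and Dock9 (0.952) for Il12rb2, and Trerf1 (0.944) and Prr5 (0.923) for Il18r1. For Il18rap they were Hopx (0.951) and Tnfsf10 (0.931), for Il1rl1 E330009J07Rik (0.955), and for Stat4 Gm19585 (0.95) and Ms4a4c (0.92). Il12rb1 and Il27ra had looser partners, Hyal2 (0.806) and Maff (0.786), and Rftn1 (0.753) and Cipc (0.723).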

How the data were processed

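Libraries were made from polyA RNA with a strand-specific kit, per the labels' protocols. FastQC, Trim Galore, STAR, DESeq2 1.24.0 and the build GRCm38 are named in the submitters' processing notes. For the counting tool, its strand setting and the annotation release, the sources used here give nothing. The deposited values are raw read counts per Ensembl gene, 1 column per library, in 30 libraries of 7306151 to 15502443 counts, whose number of counts limits the precision of each value. Genes were named from GENCODE vM21, which matched 55394 of 55573 genes; the other 179 held 0.0113% of the counts.

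From these counts, edgeR 4.0.16 (R 4.3.3) was run with TMM scaling and filterByExpr at a minimum count of 10, which kept 11718 genes with 99.88% of the counts. A mean was fitted for each of the 6 groups over all 30 libraries, quasi-likelihood tests were two-sided, and p-values were adjusted by the Benjamini-Hochberg method over all genes tested. The biological coefficient of variation was 14.3%. The 9 comparisons are the 3 of KO with WT, the 4 of a cytokine with none, and 2 differences between genotypes in a cytokine's response. No member fell below the filter, so the exact permutation test planned for such genes was not needed. The code was tested on simulated data first. Named are the 8 members, up to 4 called genes with the largest rise and up to 4 with the largest fall per comparison from the pathway lists, with Ifng, Tbx21 and Furin, and the 2 genes most correlated with each member. Some genes that this rule takes in are not reported here. Of 88 changes that passed in the pathway lists, 60 kept their call with each library left out, a check added after the data were seen, and changes that did not are mostly left out. Members and lists were chosen with earlier results of these data known.

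Alternatives were DESeq2 1.42.0, other size factors, no filter, only the groups compared, a term for sex, the title number as a block (limma 3.58.1 where genotypes are compared), each library left out, and, added after the data were seen, a term for title numbers above 70, WT libraries 72 and 75 with IL12 left out, and each IL12 library left out for the Il23r bound and the Hlx ratio.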

Additional observations from a re-analysis of the deposited data

Results flagged for a closer look

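In 5 of the 48 member and group combinations, 1 of the 5 libraries lay far from the rest by Dixon's criterion, which chance meets in about 1 of 20. KO library 74 with IL12 was such a library for Il23r (18.5 CPM), Il1rl1 (100.8 CPM) and Il18rap (86.1 CPM), the next library being at 5.72, 51.3 and 51.8 CPM. KO library 70 with TGFB1 was high for Il18rap (9.35 CPM, the others at most 5.19 CPM). WT library 75 with TGFB1 was high for Il1rl1 (3.75 CPM, the others at most 0.883 CPM), and it also had the highest sum of mast cell markers, 44.8 CPM, whose part was not tested.

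The Il18r1 response to TGFB1 differed between genotypes by the test of the difference itself, by -1.79 on the log2 scale (edgeR adjusted p = 0.0416). This call was lost in 14 of the 20 edgeR fits that left out 1 library, with adjusted p up to 0.102. Il18r1 was higher with TGFB1 at 5 of 5 title numbers in WT cells and at 2 of 5 in KO cells, though the numbers were not taken to pair the libraries.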

How the results depend on the processing

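Of the 18 member changes that passed the test, 17 kept their direction and their call in every alternative that could be fitted. The exception was the genotype difference in the Il18r1 response to TGFB1. The 17 include 2 of Il23r, which rests on its level with IL12. With no counts without cytokine its direction could not reverse, so these 2 say nothing about stability. In the fit of the WT groups with and without IL12 alone, Il23r did not pass the filter. None of the 48 group means moved by more than 1 SD without TMM.

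Members called went from 0 to 1 for KO against WT with IL12 with the term for title numbers above 70 and with the replicate block (Il1rl1, adjusted p 0.0171 and 0.0226), and from 0 to 1 without cytokine with only the groups compared (Il12rb2). For the genotype difference in the TGFB1 response they went from 1 to 2 with DESeq2 and with the replicate block (Stat4, adjusted p 0.0354 and 0.0156). Leaving out 1 library gave 0 to 1 members without cytokine and 0 to 2 for that difference. The replicate block changed no other call of a member. Same-numbered libraries deviated together only in part (30 pairs, r from -0.034 to 0.43, median 0.222, 5 at or below 0.1), so the numbers were not taken to pair the libraries.

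Counts of genes called moved more. For KO against WT without cytokine, 246 became 1099 with only the groups compared, 460 with DESeq2 and 7 to 564 without 1 library. With TGFB1, 4166 became 2307 with only the groups compared. With IL12, 794 became 504 without the filter, 45 with only the groups compared, 8 without WT libraries 72 and 75, and 174 to 1530 without 1 library. For IL12 in WT cells, 2209 became 755 without those 2 libraries and 1324 to 2727 without 1; in KO cells 1668 became 1043 to 1612. The genotype difference in the TGFB1 response went from 387 to 776 with DESeq2, 1073 with the replicate block and 58 to 2155 without 1 library. The causes were not tested.

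Among differences that never passed, some changed sign (log2 scale). The term for title numbers above 70 gave 0.167 for Il23r in KO against WT with IL12, and the replicate block gave 0.001 for Il12rb2 with TGFB1. Without WT libraries 72 and 75 with IL12, KO against WT was 0.178 for Il18r1 and 0.332 for Il23r, Stat4 with IL12 in WT cells was 0.013, and the genotype difference in the IL12 response was 0.018 for Il12rb1, 0.068 for Il18r1 and 0.109 for Il1rl1. Leaving out 1 library gave, for KO against WT, -0.051 to 0.406 (Il18r1), -0.278 to 0.036 (Il18rap) and -0.05 to 0.037 (Il27ra) without cytokine, -0.207 to 0.131 (Il12rb2) and -1.138 to 0.074 (Il1rl1, the highest without WT library 75) with TGFB1, and -0.203 to 0.138 (Il18rap) with IL12. It gave -0.076 to 0.034 (Il27ra, TGFB1 in WT), -0.173 to 0.063 (Il18r1, TGFB1 in KO), -0.095 to 0.07 (Stat4, IL12 in WT), and -0.018 to 0.248 (Il12rb1) and -0.115 to 0.016 (Il27ra) with IL12 in KO cells. For the genotype differences it gave -0.085 to 0.091 (Il12rb1, TGFB1) and -0.216 to 0.053 (Il12rb1), -0.092 to 0.301 (Il18rap) and -0.446 to 0.117 (Il1rl1) for IL12. Depth limits Il23r and Il1rl1 without IL12, where libraries held 0 to 41 counts.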
